A study of Homo sapiens with 8 samples.

Results

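The comparison asks which exons separate HMLE TWIST cells from MCF10A cells while emetine blocks translation. Its members are skipped-exon events, each a middle exon with a fixed pair of flanking exons, that were listed in the tables of both lines and had at least 20 inclusion plus skipping junction reads in each of the 4 emetine libraries. These were 49329 of the 56675 events shared by both tables, and of the 123924 events in either table, and they covered 39244 exons of 9212 genes. MCF10A is a non-tumorigenic human breast epithelial line. HMLE TWIST is a human breast epithelial line, immortalised, in which an integrated pBabe retrovirus overexpresses the transcription factor TWIST. Both were given 10 µM emetine or the solvent DMSO for 24 h, with 2 biological replicates per group in 8 polyA RNA-seq libraries, in a study of splicing regulators and RNA G-quadruplexes, folded structures of guanine runs. HMLE cells without the transgene were not analysed here, so the difference of the 2 lines and the effect of TWIST cannot be told apart. The labels do not say whether the transduced cells are 1 clone.

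The passage of epithelial cells to a mesenchymal state (EMT) is accompanied by switches of cassette exons in genes of adhesion, polarity, endocytosis and the cytoskeleton. ESRP1 and ESRP2 are epithelial RNA-binding proteins that control many of these exons, and MBNL, RBFOX, QKI and hnRNP M proteins act on others. Emetine binds the ribosome and stops translation, and because nonsense-mediated decay needs translating ribosomes, transcripts with premature stop codons can accumulate while it is present.

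The inclusion level used throughout is the share of a gene's transcripts across that junction pair that carry the exon, from 0 to 1, computed from the length-corrected junction reads. The 8 coding exons below are shown because they carry the line difference in genes of adhesion, cell polarity, signalling and splicing, and because each has a length that keeps the reading frame. MAGI1, CLSTN1 and ARHGEF11 were more included in HMLE TWIST, and NUMB, MAP3K7, ENAH, DNM2 and MBNL2 were more included in MCF10A. Letters are from GENCODE 29 transcripts, matched by gene, exon length and flanking intron lengths, and read 5′ to 3′ on the transcript strand. Capitals mark runs of 3 or more G.
MAGI1: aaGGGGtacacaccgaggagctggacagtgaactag
CLSTN1: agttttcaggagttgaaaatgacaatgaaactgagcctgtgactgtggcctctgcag
ARHGEF11: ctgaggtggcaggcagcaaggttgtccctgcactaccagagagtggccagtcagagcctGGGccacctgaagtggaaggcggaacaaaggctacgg
NUMB: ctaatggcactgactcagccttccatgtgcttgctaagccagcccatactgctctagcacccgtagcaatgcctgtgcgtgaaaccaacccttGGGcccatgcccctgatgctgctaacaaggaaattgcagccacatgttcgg
MAP3K7: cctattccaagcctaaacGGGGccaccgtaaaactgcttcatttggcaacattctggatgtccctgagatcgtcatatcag
ENAH: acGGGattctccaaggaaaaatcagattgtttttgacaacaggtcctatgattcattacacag
DNM2: GGGGagatcctg
MBNL2: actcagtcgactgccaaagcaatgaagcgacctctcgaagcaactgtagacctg
In the deposited GRCh37 coordinates, with starts counted from 1, the MAGI1 exon lies at chr3:65433697-65433732, CLSTN1 at chr1:9797556-9797612 and ARHGEF11 at chr1:156908210-156908305. The NUMB exon lies at chr14:73745989-73746132, MAP3K7 at chr6:91254271-91254351, ENAH at chr1:225692693-225692755, DNM2 at chr19:10919245-10919256 and MBNL2 at chr13:98009050-98009103. DNM2 and MBNL2 are on the plus strand and the other 6 on the minus strand. GGG is common at these lengths: it occurred in 79.3% of tested exons within 10 nt of the NUMB exon's length, in 28.8% for MAGI1 and 11.9% for DNM2.

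Far more exons were less included in HMLE TWIST than were more included. Of the 49329 members, 28434 were tested, those with at least 10 reads of the rarer form, inclusion or skipping, over the 4 libraries together. An event is called where the adjusted p was under 0.05 and the mean inclusion levels differed by at least 0.1, and 2756 events in 1854 genes were called, 9.69% of those tested. In HMLE TWIST 555 events in 447 genes were higher (1.95%) and 2201 events in 1521 genes were lower (7.74%), so 79.9% of the called events were lower (95% Wilson interval 78.3% to 81.3%, counting error only). The median difference was 0.185 for the called higher events and -0.177 for the called lower ones, beside a median standard deviation (SD) between replicates of 0.0218 in MCF10A and 0.0245 in HMLE TWIST. In 114 genes, events were called in both directions.

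The lower inclusion in HMLE TWIST was spread over the tested events, though their median difference in inclusion level was only -0.00776. The median log2 odds of inclusion over all tested events was lower by 0.56 in HMLE TWIST (-0.56, HMLE TWIST minus MCF10A), and 68.4% of tested events had a lower mean. Measured relative to that median, an alternative chosen after seeing the data, 2293 events were called, 1258 higher and 1035 lower, or 45.1% lower. The centring lowers the MCF10A levels, so every positive difference grows and a more even split follows. That all 555 higher events kept their call was therefore largely built in and is no support for them. Of the 2201 lower events, 1035 (47.0%) kept theirs. The exons named here kept their call relative to the median unless said otherwise, which bears only on those lower in HMLE TWIST. Splits of gene lists relative to the median are descriptions with the same limit. In 99.6% of the called events the 2 libraries of one line did not overlap with the 2 of the other, but with 2 against 2 this was also so in 60.7% of all tested events.

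**Figure D1:**
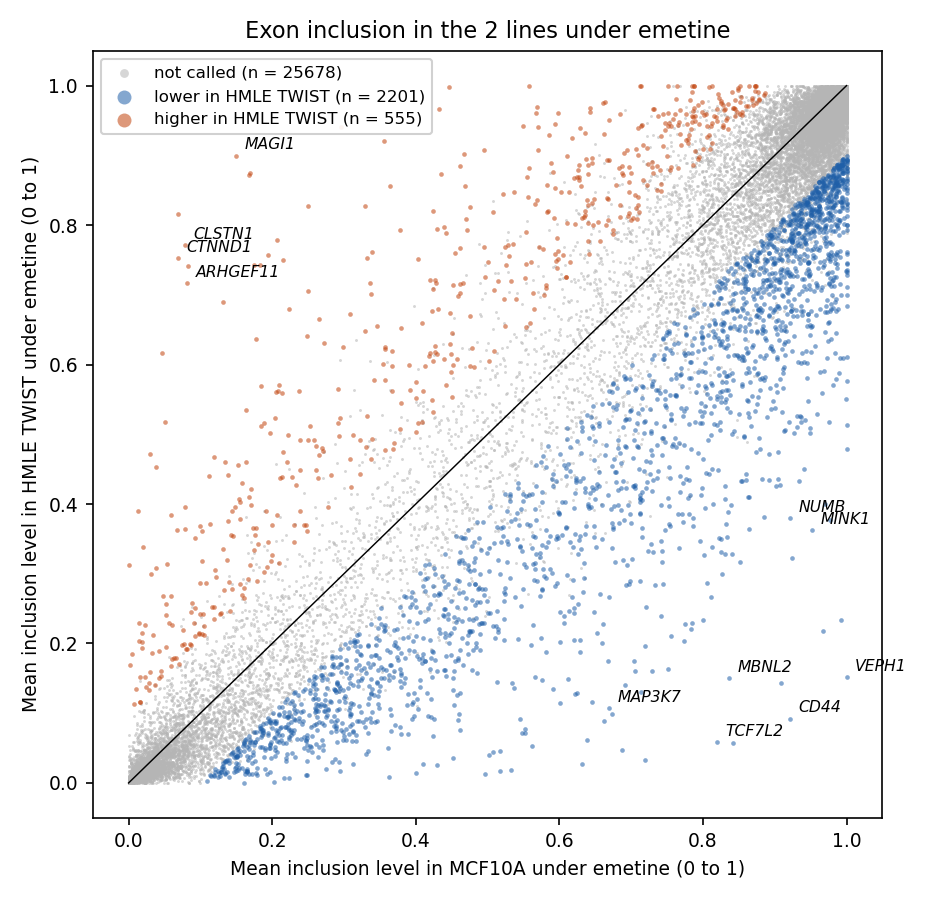
Mean inclusion level of each tested event under emetine in MCF10A (horizontal axis, 0 to 1) and HMLE TWIST (vertical axis, 0 to 1), mean of 2 libraries, with the diagonal of equal levels. Blue points (2201) lie below the diagonal and orange points (555) above it, with named exons such as CLSTN1, 0.0787 in MCF10A and 0.771 in HMLE TWIST, far from it.

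The calls rest on a quasi-binomial model whose dispersion was moderated across events, with Benjamini-Hochberg adjustment, since 2 libraries per line give each event little information on its own spread. The p-values measure the spread between these replicates, and events of a gene often share reads. With limma on the log2 odds, no event was called (0 of 28434, 0.0%). Its smallest adjusted p was 0.0609, and 7901 events were under an unadjusted p of 0.05, among them 2277 of the 2756 called. Weighting limma by counting precision, also chosen after seeing the data, gave 2633 calls. Leaving out HMLE TWIST replicate 1 left 1246 calls and leaving out HMLE TWIST replicate 2 left 1407, while leaving out either MCF10A library left 1868 and 1918.

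The junction reads of marker genes differed between the lines. The files hold no gene levels, so the most-read skipped-exon event of a marker stands for it, with its junction reads given per library. ESRP1 had 375 and 441 reads in MCF10A and 9 and 2 in HMLE TWIST, and ESRP2 had 233 and 213 against 3 and 6. FN1, which encodes the matrix protein fibronectin, had 223 and 267 reads in MCF10A and 62554 and 48702 in HMLE TWIST. ZEB1, a repressor of epithelial genes, had 9 and 2 reads against 161 and 178. TWIST1 differed less, with 51 and 108 reads in MCF10A and 169 and 199 in HMLE TWIST. Whether its event counts reads of the transgene was not tested. Over the 3 of 11 epithelial markers with a shared event the sum was 1306 to 1949 in MCF10A and 20 to 21 in HMLE TWIST. Over 6 of 11 mesenchymal markers it was 6479 to 7048 against 146797 to 169312, most of it from VIM and FN1. VIM had 5912 and 6343 reads in MCF10A and 102112 and 92833 in HMLE TWIST. None of the 5 immune or endothelial markers had a shared event. Fewer reads of a gene can mean fewer cells or less RNA per cell, and bulk RNA does not tell these apart. The 4 emetine libraries were of like depth, 54587895 to 59860575 junction reads over the shared events.

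The exons with the largest gains in HMLE TWIST included some in genes of cell junctions and the cytoskeleton. Genes of other functions ranked among them, and a shared theme was not tested. MAGI1, a scaffold of tight junctions, had inclusion levels of 0.115 and 0.185 in MCF10A and 0.861 and 0.938 in HMLE TWIST for its exon shown above. The exon was rare in both MCF10A libraries and dominant in both HMLE TWIST libraries, a difference of 0.75 (quasi-binomial adjusted p = 2.25e-08) on as few as 43 reads. CLSTN1, which encodes calsyntenin, a cargo-docking membrane protein of vesicle transport, went from 0.0888 and 0.0686 to 0.724 and 0.819. With at least 748 reads in every library it is among the best covered of the large differences, 0.693 in level and 5.34 ± 0.48 (limma SE) in log2 odds. CTNND1 encodes p120 catenin, which holds cadherins at the membrane. Its untranslated exon of 119 nt at chr11:57556509-57556627 was included at 0.0762 and 0.0613 in MCF10A and 0.775 and 0.729 in HMLE TWIST.

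CTNND1 gave 9 called events, 8 of them higher, which all involve neighbouring exons near the start of the gene or share their junctions and so are not 9 separate findings. ARHGEF11, a guanine nucleotide exchange factor, had levels of 0.0889 and 0.0743 in MCF10A and 0.72 and 0.713 in HMLE TWIST. SVIL encodes supervillin, which links actin and myosin to membranes, and its exon of 930 nt rose from 0.147 and 0.189 to 0.861 and 0.882, on as few as 32 reads. MYO18A, an unconventional myosin, had an exon of 45 nt at 0.214 and 0.2 against 0.788 and 0.768. For these exons of ARHGEF11, SVIL and MYO18A the 4 libraries fell into a low pair and a high pair with no overlap. Such separation was a condition for naming most exons in this report. Wherever it is described, above or below, it is therefore built in and is no support for them. ARHGEF11 and MYO18A each also had 1 event called lower, and that of ARHGEF11 lost its call relative to the median shift. Other exons with the largest positive differences, not all smaller than those above, were in MPZL1 (0.644), SLMAP (0.579), FAM126A (0.571), CAPN3 (0.565) and SPOP (0.562). SPOP lost its call without either HMLE TWIST library, on as few as 20 reads.

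The exons lost in HMLE TWIST were led by VEPH1 and CD44. VEPH1 encodes a protein with a pleckstrin homology domain, and its untranslated exon of 281 nt had a level of 1 in both MCF10A libraries and 0.109 and 0.195 in HMLE TWIST. CD44 encodes the hyaluronan receptor, whose variable exons are a classic mark of epithelial cells. Its variable exon of 102 nt at chr11:35229652-35229753 had levels of 0.882 and 0.961 in MCF10A and 0.172 and 0.0123 in HMLE TWIST, a difference of -0.829 (quasi-binomial adjusted p = 2.16e-08). That pair had as few as 41 reads. With other flanking exons and at least 195 reads, the same exon differed by -0.765. CD44 had 11 called events among 26 tested, 9 lower and 2 higher. In 3 events that join the exon before the variable block straight to the exon after it, variable exons of 102, 126 and 204 nt had levels of 0.00831 to 0.0989 in HMLE TWIST and 0.357 to 0.67 in MCF10A. With another end of the preceding exon, the 204 nt exon was at 0.819 and 0.855 in HMLE TWIST and 0.999 and 1 in MCF10A, so most reads of that pair included it in both lines. The 2 higher events were both of the 126 nt exon with another variable exon as its neighbour.

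TCF7L2 encodes a transcription factor of the Wnt pathway, and an exon of 73 nt near its 3′ end had levels of 0.874 and 0.764 in MCF10A and 0.046 and 0.0717 in HMLE TWIST. MBNL2, an RNA-binding protein that itself controls exon choice, carried its exon of 54 nt at 0.818 and 0.855 in MCF10A and 0.143 and 0.157 in HMLE TWIST. SEPT6, a septin filament subunit, had levels of 0.808 and 0.876 against 0.0845 and 0.0312. For these 3 exons the MCF10A libraries stood high and the HMLE TWIST libraries low. The TCF7L2 exon of 73 nt had as few as 26 reads. Of 8 tested TCF7L2 events, 4 were called lower and 2 higher. Its exon of 51 nt was at 0.0665 and 0.0981 in MCF10A and 0.666 and 0.816 in HMLE TWIST, on as few as 20 reads. MINK1 encodes a kinase of the Ste20 family, and its exon of 111 nt was at 0.937 and 0.966 in MCF10A and 0.296 and 0.43 in HMLE TWIST. KIF13A, a kinesin of endosome transport, had an exon of 105 nt at 0.747 and 0.681 against 0.14 and 0.121. It also had 3 events called higher in HMLE TWIST, by up to 0.423. Large negative differences were also called in DRAM2 (-0.759), SLC37A2 (-0.685), XPNPEP3 (-0.641), SLC6A6 (-0.6) and the noncoding OSER1-AS1 (-0.588). SLC6A6 and OSER1-AS1 lost their calls without HMLE TWIST replicate 1.

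Genes known for EMT splicing had exons called in both directions. From a list of 50 such genes, 47 were tested, and 81 of their 280 events (28.9%) in 38 genes were called, beside 9.69% of all tested events. In HMLE TWIST 30 events were higher and 51 lower, and relative to the median shift the split was 40 and 40. The median difference over the list's 280 events was -0.00555, beside -0.00776 over all tested events. Limma gave an unadjusted p under 0.05 in 78 of the 81. The list was drawn up with earlier results of these data known, and the genes named from here to the end of the next paragraph, other than NUMB, MAP3K7, DNM2 and MBNL1, were chosen after their values were seen.

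NUMB, an endocytic adaptor that restrains Notch, had levels of 0.93 and 0.912 in MCF10A and 0.413 and 0.347 in HMLE TWIST for its exon of 144 nt. MAP3K7 encodes TAK1, a kinase of the TGF-beta pathway, and its exon of 81 nt was at 0.685 and 0.653 against 0.0732 and 0.142. DNM2, the GTPase dynamin that cuts endocytic vesicles free, had its microexon of 12 nt at 0.871 and 0.857 against 0.386 and 0.343. All 3 exons were more included in both MCF10A libraries. ENAH encodes an actin-polymerising protein, and its exon of 63 nt, which epithelial cells are known to include, was at 0.18 and 0.178 in MCF10A and 0.0276 and 0.0151 in HMLE TWIST. SLK, a kinase of the cytoskeleton, had an exon of 93 nt at 0.225 and 0.18 against 0.00317 and 0. The HMLE TWIST libraries were the lower ones in both genes. Among exons gained in HMLE TWIST, NFYA, a subunit of a CCAAT-binding factor, went from 0.0257 and 0.0498 to 0.364 and 0.543. MARK3, a polarity kinase, had an exon of 27 nt at 0.516 and 0.356 against 0.859 and 0.888, on as few as 68 reads. That pair has an alternative exon of 45 nt as its downstream exon. With the next exon downstream instead, on at least 495 reads, levels were 0.0382 and 0.0384 in MCF10A and 0.285 and 0.33 in HMLE TWIST. SCRIB, a polarity scaffold, had levels of 0.189 and 0.138 against 0.568 and 0.502. EXOC7, a subunit of the exocyst, had an exon of 93 nt at 0.498 and 0.441 against 0.831 and 0.788. The 3 other called EXOC7 events, of exons of 69 and 153 nt, were lower in HMLE TWIST, with differences from -0.194 to -0.332. Calls in FNIP1, ITGA6, MACF1, OPA1 and UAP1 were lost relative to the median shift, with differences from -0.119 in UAP1 to -0.227 in OPA1. All 5 also lost them without HMLE TWIST replicate 1, OPA1 and ITGA6 without either replicate 2, and ITGA6 without MCF10A replicate 1.

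**Figure D2:**
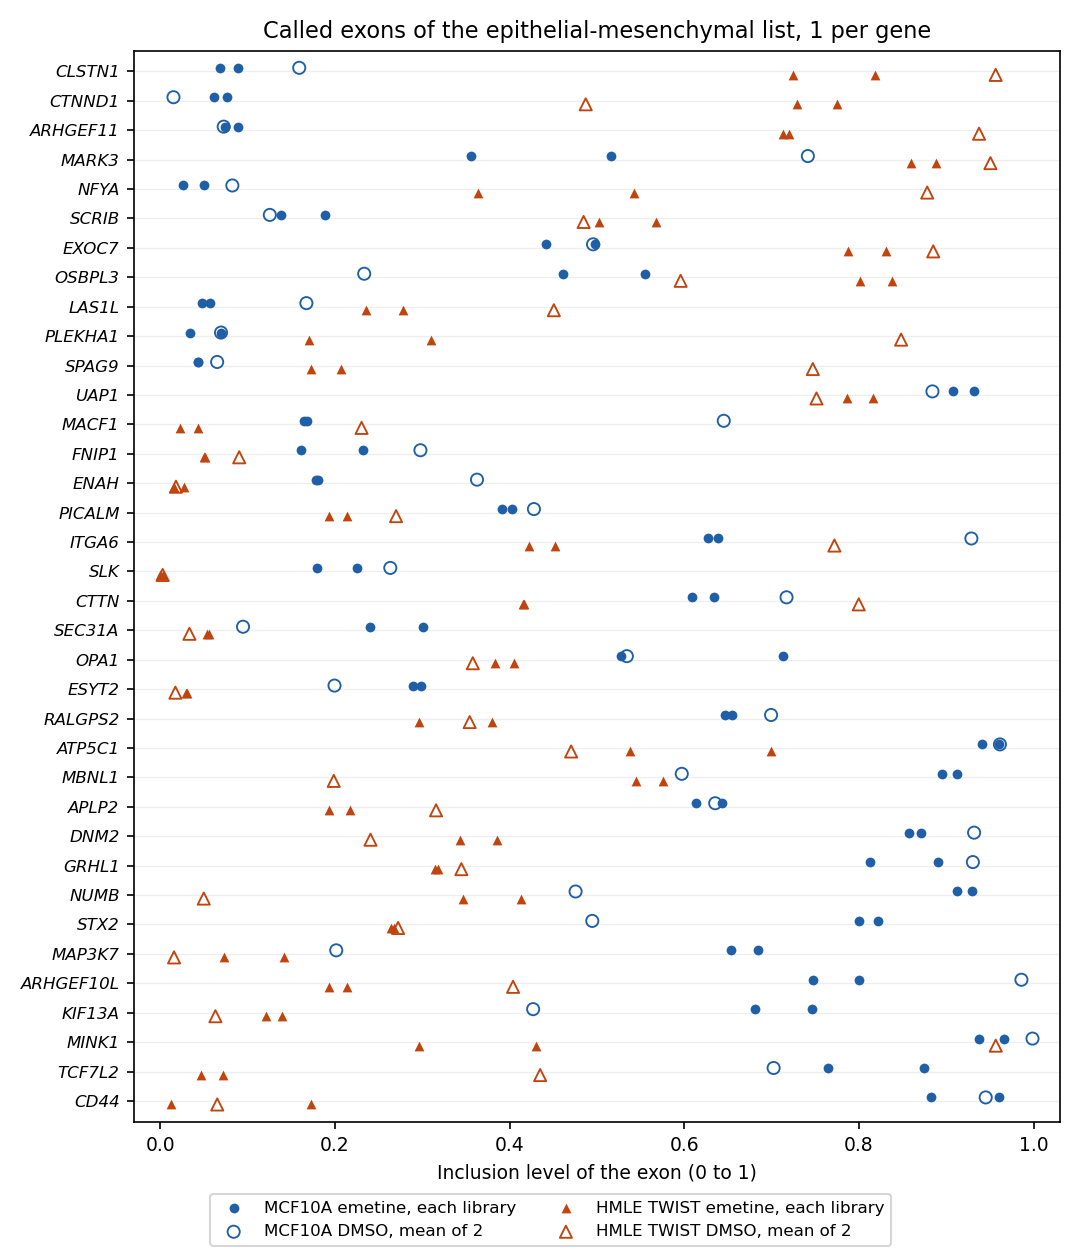
Inclusion level (0 to 1) of the called event with the largest difference in each called gene of the EMT list that is reported here. Filled symbols are single emetine libraries and open symbols DMSO means of 2, with circles for MCF10A and triangles for HMLE TWIST; CLSTN1 at the top has the largest gain in HMLE TWIST and CD44 at the bottom the largest loss.

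The other gene lists, some of which share members with it, fell on both sides of the background of 9.69%. No list, the EMT list included, was matched for inclusion level, on which the share called depends. Of all tested events, 1.52% were called at a mean level of 0.9 or above and 39.3% from 0.3 to below 0.5. Endocytosis and vesicle traffic had 44 of 194 tested events called (22.7%), 15 higher and 29 lower, or 22 and 22 relative to the median shift. Besides NUMB, KIF13A and DNM2 it held EXOC1, another exocyst subunit, at 0.845 and 0.765 in MCF10A and 0.36 and 0.212 in HMLE TWIST. Adhesion and matrix had 30 of 178 called (16.9%), 11 higher and 19 lower (14 and 16 relative to the median shift). Of the 30, however, 11 were in CD44 and 9 in CTNND1. A call was found in 10 of its 31 tested genes, beside 1854 of all 7966 tested genes. DDR1, a collagen receptor kinase, had an untranslated exon of 56 nt at 0.819 and 0.843 against 0.38 and 0.276, and COL16A1, a collagen, had a coding exon of 45 nt at 0.819 and 0.691 against 0.235 and 0.188. Both were lower in HMLE TWIST in each library. Actin cytoskeleton genes had 34 of 243 called (14.0%), 13 higher and 21 lower, and relative to the median shift 18 higher and 15 lower, so the larger side turned. ADD3, an adducin that caps actin at the membrane skeleton, was at 0.723 and 0.553 against 0.111 and 0.0107, and DST, a linker of filaments, had an exon of 18 nt at 0.834 and 0.817 against 0.269 and 0.393. Without HMLE TWIST replicate 1 the endocytosis count was 25.

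Receptors and kinases had 21 of 121 events called (17.4%), 11 higher and 10 lower, and 15 and 8 relative to the median shift. MAP2K7, which activates the JNK kinases, had an exon of 48 nt at 0.134 and 0.131 in MCF10A and 0.719 and 0.66 in HMLE TWIST, a gain in both libraries. Regulators of small GTPases had 15 of 131 called (11.5%), 3 higher and 12 lower, a share near the background. Relative to the median shift the direction turned, to 10 higher and 4 lower. ARHGEF10L, a guanine nucleotide exchange factor, had a microexon of 15 nt at 0.8 and 0.747 against 0.213 and 0.193. DOCK9 differed by -0.406 and RALGPS2 by -0.313. Both calls failed without HMLE TWIST replicate 1, and that of DOCK9 also without HMLE TWIST replicate 2. Leaving out 1 library at a time left 3 to 8 of the 15 GTPase calls, 3 and 5 without HMLE TWIST replicates 1 and 2 and 8 without either MCF10A library.

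**Figure D3:**
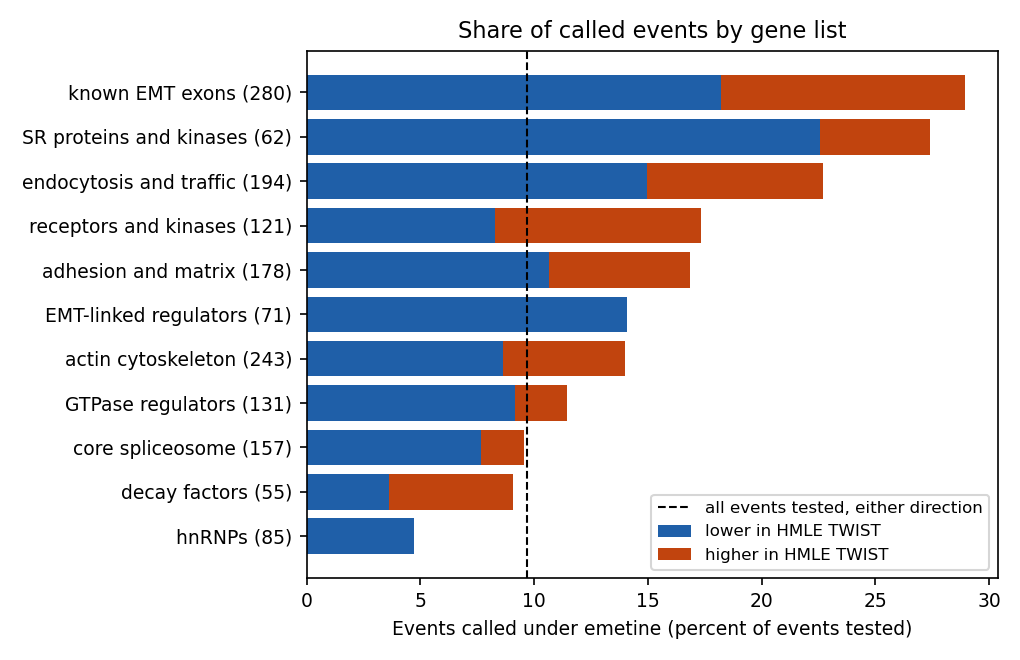
Events called under emetine as a percentage of the events tested (horizontal axis) for each gene list, with the number tested in brackets, split into lower (blue) and higher (orange) in HMLE TWIST. The dashed line is the 9.69% of all tested events; EMT genes (28.9%) and SR proteins with their kinases (27.4%) stand farthest to its right and hnRNPs (4.71%) to its left.

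The splicing machinery itself differed unevenly. SR proteins and their kinases, which bind exonic enhancers and phosphorylate those that do, had 17 of 62 events called (27.4%), 3 higher and 14 lower, and 11 without HMLE TWIST replicate 1. Relative to the median shift the split was 6 higher and 7 lower. All 4 CLK kinases had calls, in CLK1 a single lower one of -0.219. CLK2 had its exon of 88 nt at 0.872 and 0.937 in MCF10A and 0.468 and 0.405 in HMLE TWIST, CLK3 one of 97 nt at 0.943 and 0.955 against 0.45 and 0.569, and CLK4 one of 91 nt at 0.942 and 0.963 against 0.594 and 0.717. None of these lengths keeps the reading frame. These 3 exons were more skipped in both HMLE TWIST libraries, but CLK4 also had 2 events called higher, by up to 0.178, and an exon of 93 nt in the kinase SRPK2 was more included there, by 0.228.

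Regulators linked to EMT had 10 of 71 events called (14.1%), all lower in HMLE TWIST, and 6 and 5 without HMLE TWIST replicates 1 and 2. Relative to the median shift 1 was higher and 7 lower. MBNL1, the paralog of MBNL2, had the equivalent 54 nt exon at 0.895 and 0.912 in MCF10A and 0.576 and 0.545 in HMLE TWIST. TIA1, a U-rich-sequence-binding splicing factor, had an exon of 33 nt at 0.745 and 0.822 against 0.503 and 0.456. CELF1 differed by -0.16, a call lost relative to the median shift and without HMLE TWIST replicate 2. Heterogeneous nuclear ribonucleoproteins (hnRNPs) had 4 of 85 events called (4.71%), all lower, and 2 without HMLE TWIST replicate 2. Relative to the median shift 1 was higher and 1 lower. RALY had the largest difference, -0.449. HNRNPDL (-0.143), HNRNPAB (-0.111) and HNRNPD (-0.1) lost their calls relative to the median shift, HNRNPDL also without every library but MCF10A replicate 1 and HNRNPD without either replicate 2.

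The core spliceosome, with 15 of 157 events called (9.55%), 3 higher and 12 lower, was at the background, and relative to the median shift 6 were higher and 5 lower. PRPF39, a U1 snRNP factor, had an exon of 100 nt at 0.751 and 0.735 in MCF10A and 0.286 and 0.348 in HMLE TWIST. DDX46, a helicase of the U2 snRNP, had one of 117 nt at 0.418 and 0.413 against 0.174 and 0.0835. Both exons are annotated only in transcripts classed as decay targets, and both were lower in HMLE TWIST. SNRPA1, a U2 snRNP protein, differed by -0.294. LUC7L3 differed by 0.288, a call lost without any library except MCF10A replicate 1.

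Factors of nonsense-mediated decay had 5 of 55 events called (9.09%), 3 higher and 2 lower (5 and 1 relative to the median shift), and none differed by 0.2 or more. MAGOHB, an exon junction complex subunit, had a decay-target exon of 286 nt at 0.142 and 0.136 in MCF10A and 0.292 and 0.286 in HMLE TWIST, higher in both libraries of the latter. DHX34 (-0.159) lost its call relative to the median shift and without MCF10A replicate 1 or HMLE TWIST replicate 2. UPF3A (0.117) lost its call without any library except HMLE TWIST replicate 2. The list's count was 3 without either MCF10A library and 3 without HMLE TWIST replicate 1.

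The called exons differed from the rest in size, frame and annotation, given here as descriptions. Among coding exons, 64.4% of the higher ones (201 of 312) had a length that is a multiple of 3, beside 42.5% of the lower (515 of 1211) and 38.2% of those not called (6588 of 17241). Exons of 27 nt or shorter, called microexons, made up 5.23% of the higher events (29), 1.36% of the lower (30) and 1.31% of the rest (336). Exons annotated only in decay-target transcripts were 15.7% of the matched lower events, 11.4% of the higher and 10.2% of those not called. Skipping that GENCODE 29 annotates only in such transcripts made up 10.5% of the lower, 5.06% of the higher and 6.23% of the rest. The shorter flanking intron had a median of 719 nt beside lower exons, 1027 nt beside higher ones and 1166 nt beside the rest. Lower exons were also richer in G and C, with a median of 52.5% against 48.6% for higher exons and 48.9% for those not called.

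Runs of G, the sequence that hnRNP F and H proteins bind and that G-quadruplexes are built from, became more common with exon length in every class. The motif GGG was searched on the transcript strand and CCC as its match on the other strand. Among exons of 28 to 60 nt, GGG was in 35.3% of the higher, 37.0% of the lower and 35.1% of those not called. Among exons of 61 to 100 nt these shares were 58.3%, 61.8% and 55.6%. Above 150 and up to 250 nt they were 93.8%, 89.2% and 84.8%, with CCC in 81.2%, 88.8% and 84.6%. The classes thus differed by less than short and long exons did, and a match is only the presence of the letters.

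Calls were concentrated in exons that are neither always included nor always skipped. Of the 1048 tested events with a mean level from 0.3 to below 0.5 over both lines, 39.3% were called, against 1.52% of the 16210 at 0.9 or above, where a difference of 0.1 has little room. The share of called events that were lower ran from 77.2% to 84.6% over the 6 ranges of level, so the excess of lower events was found at every level. It also ran from 78.1% to 83.4% over 6 ranges of depth. By exon length it was 50.9% among exons of 27 nt or less and 84.9% among those above 150 and up to 250 nt.

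Under DMSO fewer exons were called between the lines. Of 19301 tested events 1250 were called (6.48%), 415 higher (2.15%) and 835 lower (4.33%) in HMLE TWIST, and leaving out HMLE TWIST replicates 1 and 2 left 438 and 416, and MCF10A replicates 1 and 2 left 823 and 812. Limma called 36 (0.187%). Among the 16353 events tested under both treatments 12.7% were called under emetine and 7.08% under DMSO. Over the events tested under emetine, median reads per event were 295 to 340 in the DMSO libraries and 425 to 472 in the emetine ones. The part of this depth in the lower DMSO count was not tested. The median log2 odds over these 16353 was lower in HMLE TWIST by 0.47 under emetine (-0.47) and by 0.32 under DMSO (-0.32). Across these events the line differences under the 2 treatments, which share no library, correlated at 0.483 (Pearson) and 0.348 (Spearman), a description over events that are not independent.

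**Figure D4:**
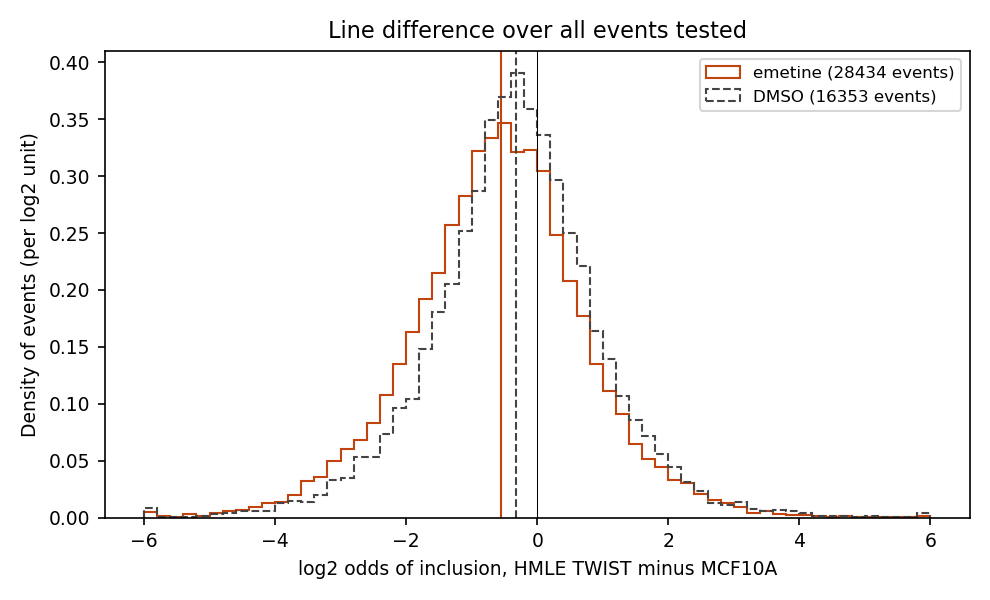
Density of events (per log2 unit) by the log2 odds of inclusion in HMLE TWIST minus MCF10A, for the 28434 events tested under emetine (solid) and the 16353 of them also tested under DMSO (dashed), with values beyond 6 gathered in the end bins. Vertical lines mark the medians, -0.56 under emetine and -0.32 under DMSO, and the thin black line marks 0.

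Of the 2756 events called under emetine, 2423 had at least 20 reads in every DMSO library. Their line difference had the same sign under DMSO in 1860 (76.8%), 569 (23.5%) were called under DMSO as well, and in 1199 (49.5%) the DMSO difference was under 0.05 in size. Seen from the other side, 569 of the 1196 events called under DMSO with enough emetine reads (47.6%) were called under emetine. On the EMT list, of the 76 called events with DMSO reads, 73 had the same sign and 57 were called under DMSO. CD44 had mean levels of 0.945 and 0.0651 under DMSO in MCF10A and HMLE TWIST and SCRIB 0.125 and 0.485, differences near those under emetine (-0.829 and 0.372).

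Whether a line difference depended on the treatment was tested with the line by treatment term over all 8 libraries, which compares odds and not levels. Of 31825 events 509 were called (1.6%). Limma called 0, with 4058 under an unadjusted p of 0.05 and a smallest adjusted p of 0.197. Leaving out MCF10A emetine replicates 1 and 2 left 120 and 119 calls, and HMLE TWIST emetine replicates 1 and 2 left 217 and 188. Among DMSO libraries, leaving out HMLE TWIST replicates 1 and 2 left 303 and 307, and MCF10A replicates 1 and 2 left 400 and 276. Events chosen for a large difference under emetine will tend to show a smaller one under DMSO, so shares among them are not read further. NAV2, a guidance protein that binds the cytoskeleton, had the largest difference of differences in its microexon of 9 nt. Under emetine its levels were 0.45 and 0.53 in MCF10A and 0.186 and 0.195 in HMLE TWIST. Under DMSO they were 0.177 and 0.226 against 0.659 and 0.783, so the order of the lines was the opposite (quasi-binomial adjusted p = 5.7e-09 for the interaction).

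MBNL2 had DMSO levels of 0.147 and 0.108 in MCF10A and 0.00909 and 0.106 in HMLE TWIST, low in all 4 libraries, whereas under emetine the MCF10A libraries stood at 0.818 and 0.855. The line difference was -0.0699 under DMSO and -0.686 under emetine (interaction adjusted p = 0.0205, quasi-binomial). CLK2 was near full inclusion in both lines under DMSO, 0.966 and 0.976 on average, and the line difference went from 0.00967 under DMSO to -0.468 under emetine (interaction adjusted p = 0.00204, quasi-binomial). PLEKHA1, a phosphoinositide-binding adaptor, and SPAG9, a scaffold of JNK signalling, went the other way. PLEKHA1 averaged 0.0694 and 0.848 under DMSO and 0.0517 and 0.24 under emetine, and its emetine call failed without either HMLE TWIST library. SPAG9 averaged 0.065 and 0.747 under DMSO and 0.0427 and 0.19 under emetine. For both, the HMLE TWIST libraries were higher under either treatment, by less under emetine. MINK1 had line differences of -0.0421 under DMSO and -0.589 under emetine, yet its interaction, tested on the odds, had an adjusted p of 1 in the quasi-binomial model.

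**Figure D5:**
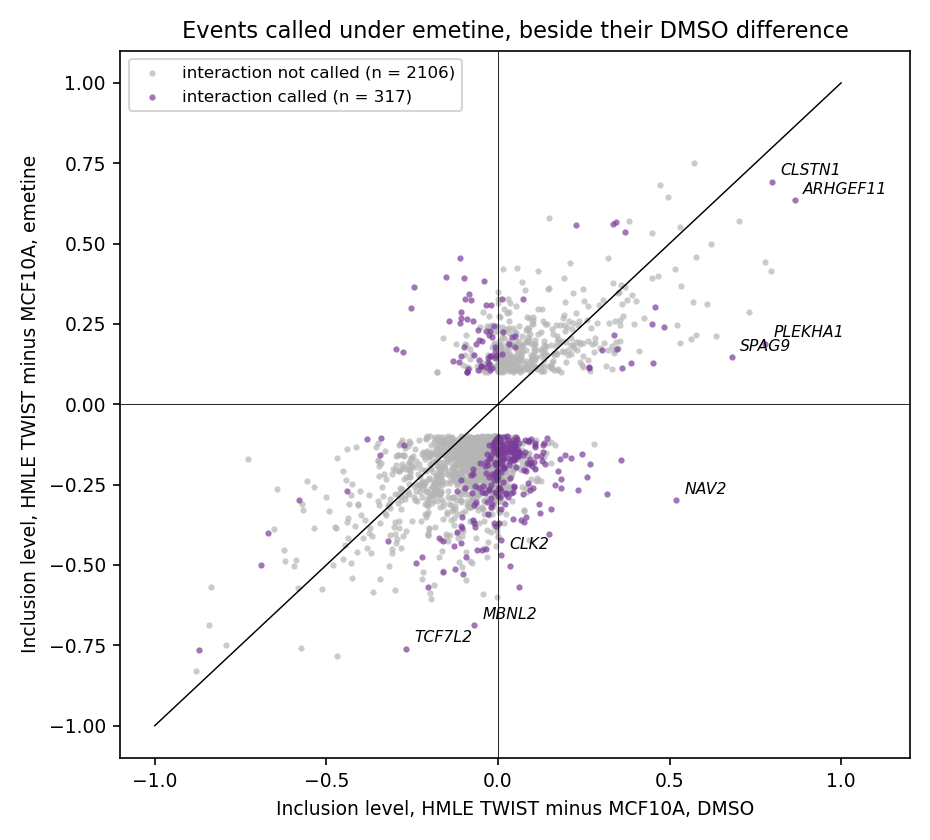
Line difference in inclusion level (HMLE TWIST minus MCF10A) under DMSO (horizontal axis) and under emetine (vertical axis) for the 2423 events called under emetine with enough DMSO reads, so that no point lies within 0.1 of 0 on the vertical axis. Purple marks the 317 whose interaction was called; CLSTN1 lies near the diagonal of equal differences, MBNL2 far below it and NAV2 in the quadrant of opposite signs.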

How the data were processed

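Skipped-exon tables of the 2 lines were joined on chromosome, strand and the 6 exon boundaries. Per the submitters' processing notes, STAR 2.5.3a and GRCh37 were used; the rMATS version and annotation release are not given in the sources used here. Per the file headers, each deposited table holds inclusion and skipping junction counts per replicate, inclusion levels, a p-value and FDR, and a difference score; the deposited p-values and scores are the authors' rMATS results for emetine against DMSO and were not used for the line comparison. The second sample of each table was taken as emetine from the table's name. Inclusion levels were computed from the deposited counts, and the authors' 4 columns of levels were not used; the authors' difference scores were recomputed to within 0.00142.

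Each event with 20 reads per library, and 10 of the rarer form in all, was fitted with a quasi-binomial logistic model in R 4.3.3, with dispersions moderated by limma 3.58.1 (from 1.76 to 9.56 under emetine, prior weight 34.7 degrees of freedom) and floored at 1. F tests were two-sided with Benjamini-Hochberg adjustment over all tested events. Limma on log2 odds with 0.5 added to each count was the alternative. The models were also tested on simulated data, in which 81 events had a true difference of at least 0.1. The quasi-binomial model recovered 70.4% of them, with 2 false calls among 64, and limma recovered 0%. The simulation used a single dispersion for all events, so it did not cover the range seen in the data. Only 177 of its 26558 events were shifted, and it had no shift of the whole set. Both differ from the data, so it cannot decide between the 2 models there. Means are over 2 libraries; depth per event in a library had a median of 425 to 472 junction reads over tested emetine events. Replicates spread more widely than counting noise alone (mean chi-square 2.16 and 2.23 under emetine).

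Named genes are the 12 largest called differences in each direction whose libraries do not overlap, 1 event per gene, up to 4 called genes per list, and the 4 largest interactions. Some named genes are not reported here. The members and lists were chosen with earlier results of these data known. Exon classes come from GENCODE 29, matched by structure for 98.8% of tested events.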

Additional observations from a re-analysis of the deposited data

Results flagged for a closer look

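In the exons named here the line difference under emetine differed from that under DMSO by the line by treatment test (quasi-binomial, adjusted over 31825 events), and limma called none of them. The values are the line difference under emetine minus that under DMSO, in inclusion level, on 2 libraries per group.

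Most were negative. The farthest from 0 were NAV2 (-0.819), PUM2 (-0.686), UIMC1 (-0.631), MBNL2 (-0.616), PLEKHA1 (-0.59), SPAG9 (-0.535), TCF7L2 (-0.493) and CLK2 (-0.478). Smaller ones were DDX46 (-0.315), CTTN (-0.289), PRPF39 (-0.267), DHX34 (-0.231), ARHGEF11 (-0.231), HNRNPAB (-0.107), CLSTN1 (-0.105) and APLP2 (-0.104). In CTTN, an actin regulator, the exon of 111 nt averaged 0.717 in MCF10A and 0.8 in HMLE TWIST under DMSO, and 0.622 and 0.416 under emetine. PUM2, an RNA-binding repressor of translation, averaged 0.454 and 0.955 under DMSO and 0.888 and 0.703 under emetine, where its line difference was not called. UIMC1, a DNA repair protein, averaged 0.0237 and 0.0856 under DMSO and 0.729 and 0.16 under emetine, on as few as 29 reads, and its emetine call failed without HMLE TWIST replicate 2.

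Positive values were those of MAP2K7 (0.329), DNM2 (0.192) and ENAH (0.187). DNM2 and ENAH were lower in HMLE TWIST under both treatments, by less under emetine, and MAP2K7 was higher under both, by more under emetine. The part of read depth, cell composition or RNA quality in these differences was not tested.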

How the results depend on the processing

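No named exon changed direction under any alternative run. This was largely built in and is no support for them. Most runs keep the same difference in level, and the exons were mostly chosen for libraries that do not overlap. The larger side of the calls did change when centred. Under emetine, calls (2756; 555 higher, 2201 lower) became 0, 0 and 0 with limma (0.5 added), 608, 115 and 493 with 1 added, and 1133, 228 and 905 at a difference of at least 0.2. Without the filter on the rarer form they were 0, 0 and 0, with the prior weight of the moderation at 1.17 degrees of freedom against 34.7 and a smallest adjusted p of 0.164. Centred on the median log2 odds they split into 1258 higher and 1035 lower (45.1% lower), a setting in which every positive difference grows. Leaving out 1 library gave 1246 to 1918 calls, 206 to 381 higher and 1040 to 1537 lower, with 79.7% to 83.5% lower. Under DMSO (1250) there were 36 with limma, 0 without the filter and 416 to 823 leaving out 1 library. For the interaction (509) there were 0 with limma, 295 with each event's own dispersion where larger, and 119 to 400 leaving out 1 library. With the replicate block, calls were 0 (0 higher, 0 lower) under emetine (smallest adjusted p 0.113, prior weight 1.87), 0 under DMSO and 105 for the interaction. Replicate numbers were taken from the order listed, an assumption, and replicate gaps of the lines correlated at 0.0524, so the numbers are not treated as pairs. Where no such value is given, the cause was not tested. The other alternatives kept these 3 totals within 1.5 times. Gene list counts moved further: at 100 reads actin 34 to 22, GTPase 15 to 7 and receptors 21 to 13, adhesion 30 to 19 with 1 event per exon, hnRNPs 4 to 8 without length correction and 4 to 2 centred, and decay factors 5 to 3 with own dispersion. Of 83 named exons, 52 were testable at 100 reads per library, and all 52 kept their call or its absence. Their counts are unchanged in that run, so this was largely built in. When centred, 73 of the 83 kept their call or its absence. Limma with 0.5 added called none, in any gene list either. With 2 libraries per group, differences in events of few reads are limited by depth.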
